A study of Mus musculus with 12 samples.

Results

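The mRNAs described here are 5 nuclear hormone receptors and 4 genes that glucocorticoids are known to induce, followed through 12 bulk RNA sequencing libraries of mouse pituitary. The receptors are Esr1 (estrogen receptor alpha), Pgr (progesterone receptor), Thra and Thrb (thyroid hormone receptors alpha and beta) and Nr3c1 (glucocorticoid receptor). The targets are Fkbp5, Tsc22d3, Sgk1 and Zbtb16. They were chosen by name, with earlier results of these data known, and all 9 were found among the 55421 gene IDs of the count tables and passed the filter on low counts, which kept 22630 genes. The chosen genes are thus 9 of 55421.

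All libraries came from C57BL/6 mice with floxed Gpr101 (Gpr101 fl/fl), a gene for an orphan G protein-coupled receptor. Mice of genotype Cga-creAAVGpr101fl/fl received a cre virus and mice of genotype Cga-ctrlAAVGpr101fl/fl a control virus, and each kind was given either AA14, a ligand, or vehicle for 1 week. The 4 groups of 3 libraries are called cre_AA14, cre_vehicle, ctrl_AA14 and ctrl_vehicle. The labels name Cga, the gene of the glycoprotein hormone alpha subunit of gonadotrophs and thyrotrophs. A cre driven by it would act in only part of the cells sequenced, and the size of that part was not measured. The labels give neither the age of the mice nor whether each library is 1 mouse. The p-values thus reflect library-to-library spread, part of which may be technical. The tissue was dispersed into single cells before RNA extraction.

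Nuclear receptors are transcription factors that respond to a hormone that enters the cell. In the pituitary they carry feedback from the glands it controls: glucocorticoids act on corticotrophs through Nr3c1, thyroid hormone represses the thyrotropin subunit gene Tshb mainly through Thrb, and estrogen acts through Esr1 on lactotrophs and gonadotrophs, where Pgr is a known estrogen-induced gene. Fkbp5 encodes a chaperone that lowers the affinity of the glucocorticoid receptor for its hormone, Tsc22d3 encodes the anti-inflammatory protein GILZ, Sgk1 a kinase that regulates ion channels, and Zbtb16 a zinc finger transcription factor.

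Library totals ran between 48693682 and 73388221 counts. Levels are CPM, a gene's counts relative to its library total after TMM scaling in edgeR. Defining genes of the pituitary were abundant in every library: Gh and Ghrhr summed to between 90566 and 242166 CPM, and Prl lay between 31140 and 91939 CPM. Gpr101 itself was low, at 2.57, 2.43 and 0.901 CPM in cre_AA14, 2.43, 4.29 and 1.29 CPM in cre_vehicle, 3.30, 2.20 and 6.60 CPM in ctrl_AA14, and 1.65, 1.22 and 16.1 CPM in ctrl_vehicle, so the cre and control libraries overlapped. Some libraries stood apart from the rest. Malat1, a nuclear long noncoding RNA, exceeded 1000 CPM in 5 libraries (cre_AA14 2, cre_vehicle 1 and all 3 of ctrl_AA14) and lay between 199 and 549 CPM in the other 7. The mean log2 CPM of 7 oligodendrocyte markers was above 5 in 3 libraries (cre_vehicle 2, ctrl_AA14 1 and ctrl_vehicle 3). In cre_AA14 1, all 10 immediate-early and dissociation genes reached their highest value of the 12 libraries, summing to 6596 CPM, while their sum in the other libraries ran up to 1775 CPM.

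Per kilobase of exon, Thra had the highest mean level of the 9 genes (34.8 CPM per kb, range 14.5 to 74.8) and Pgr the lowest (1.39 CPM per kb, range 0.772 to 2.13). Tsc22d3 followed Thra at 17.2 CPM per kb, then Nr3c1 at 13.6, Thrb at 9.02, Fkbp5 at 8.25, Sgk1 at 7.28, Esr1 at 3.68 and Zbtb16 at 3.14. Several steps in this order were clear in every library: Nr3c1 exceeded Thrb, Sgk1 exceeded Esr1 and Zbtb16 exceeded Pgr in 12 of 12. Thra exceeded Tsc22d3 in 10 of 12 libraries, and Tsc22d3 exceeded Nr3c1 in 10 of 12. The remaining neighbours could not be ranked. Thrb exceeded Fkbp5 in 7 of 12 libraries, Fkbp5 exceeded Sgk1 in 5 and Esr1 exceeded Zbtb16 in 4, although their means stand in that order.

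**Figure D1:**
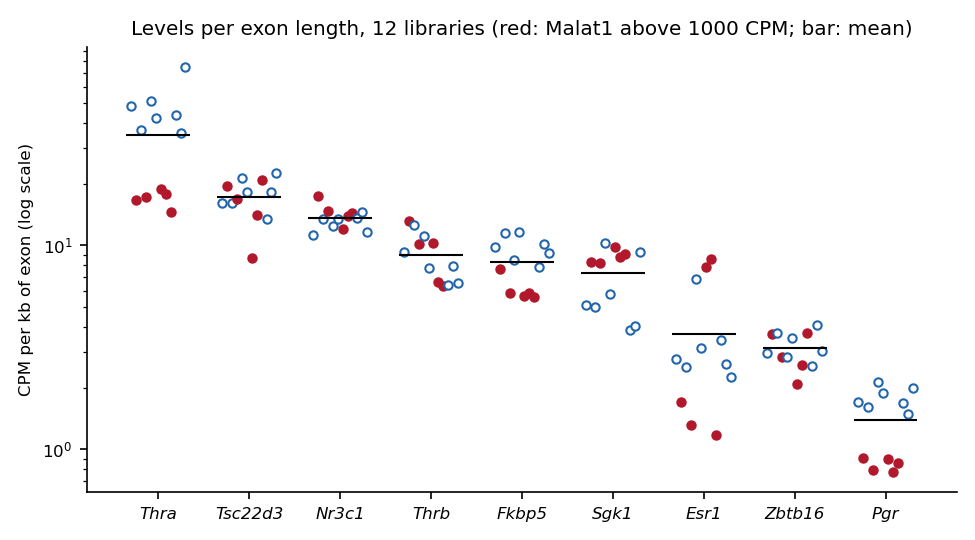
Level of each gene per kilobase of exon (CPM per kb, log scale) in the 12 libraries; points run from cre_AA14 on the left of each gene to ctrl_vehicle on its right, red points are the 5 libraries with Malat1 above 1000 CPM, and bars are means. Thra averaged 34.8 and Pgr 1.39 CPM per kb, and Thra and Pgr each fall into separate red and blue clusters.

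The genes differed widely in how steady they were. Nr3c1 had a coefficient of variation over the 12 libraries of 12.5%, and 19.9% of the 10690 genes averaging 10 CPM or more were steadier still. Esr1 was at the other end with 69.6%, above 97.2% of these genes. Thra stood at 53.2%, Pgr at 37.0%, Sgk1 at 32.4%, Thrb at 27.4%, Fkbp5 at 27.0%, Tsc22d3 at 22.7% and Zbtb16 at 18.9%, against a median of 19.5% over all 10690 genes.

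**Figure D2:**
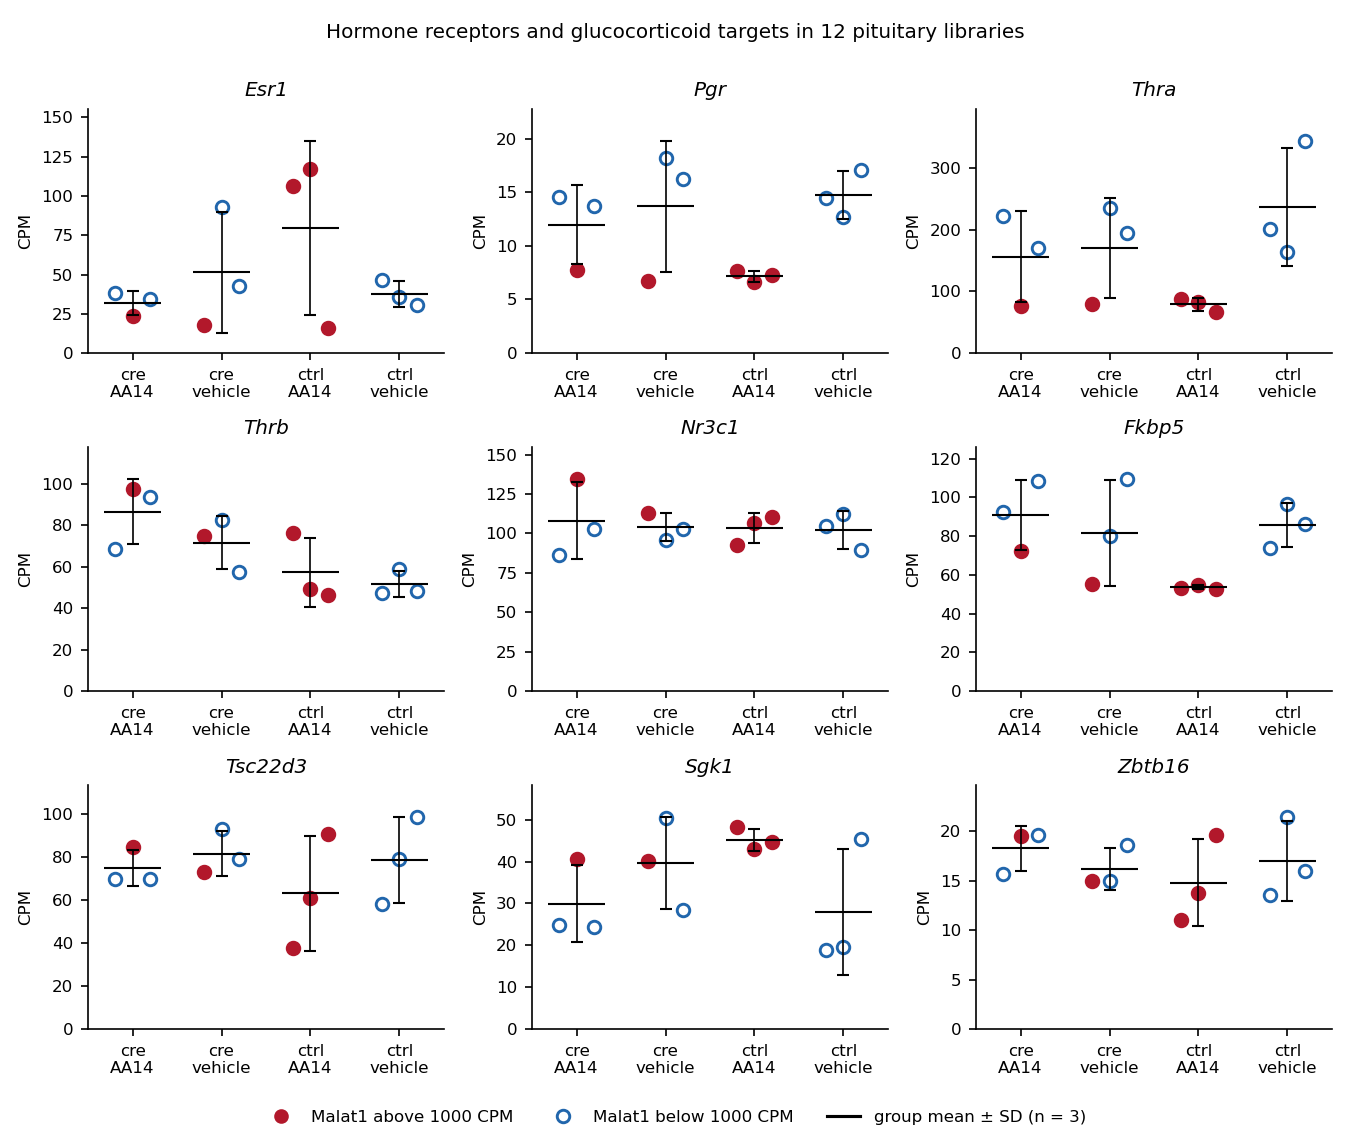
CPM of each gene (linear axes starting at 0) in the 3 libraries of each group, with the group mean and SD as bars; filled red points are libraries with Malat1 above 1000 CPM. Thra, Pgr and Fkbp5 are low in all 5 red points, including the single red point of cre_AA14 and of cre_vehicle, while Nr3c1 stays between 86.4 and 135 CPM throughout.

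Among the steroid receptors, Esr1 (ENSMUSG00000019768, GRCm38 chr10:4611593-5005614, plus strand) was the most uneven. It had 38.0, 23.4 and 34.7 CPM in cre_AA14, 18.0, 93.3 and 42.7 CPM in cre_vehicle, 106, 117 and 16.1 CPM in ctrl_AA14, and 46.7, 35.6 and 30.9 CPM in ctrl_vehicle. Both the 2 highest values and the lowest value of the series thus lay within ctrl_AA14, and the groups overlapped. Against vehicle, AA14 with the control virus gave a log2 fold change of 1.08 ± 0.66 (SE, n = 3 libraries in each group; edgeR quasi-likelihood test, adjusted p = 0.329). Omitting ctrl_AA14 replicate 3 gave 1.58, and omitting replicate 2 gave 0.69. With the cre virus the AA14 fold change was -0.68 ± 0.65 (edgeR adjusted p = 1), and it became 0.08 without cre_vehicle replicate 2, the library with 93.3 CPM. Esr2, the gene for the other nuclear estrogen receptor, was between 0 and 0.669 CPM in all libraries.

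Pgr (ENSMUSG00000031870, chr9:8899833-8968611, plus strand) lay at 2 levels. It had 14.5, 7.74 and 13.7 CPM in cre_AA14, 6.75, 18.2 and 16.2 CPM in cre_vehicle, 7.63, 6.60 and 7.29 CPM in ctrl_AA14, and 14.4, 12.7 and 17.1 CPM in ctrl_vehicle. Every ctrl_AA14 library was below every ctrl_vehicle library, whereas the cre_AA14 and cre_vehicle libraries overlapped. With the control virus, AA14 gave a log2 fold change of -1.04 ± 0.34 (n = 3 each; edgeR unadjusted p = 0.0113, adjusted p = 0.141), and with the cre virus one of -0.19 ± 0.34 (edgeR adjusted p = 1). Pgr and Esr1 kept no fixed ratio: per kilobase, Pgr stood at 0.0902 to 0.887 of the Esr1 level.

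Because Pgr, Thra and Fkbp5 were low in the same libraries, the 250 bases before the RefSeq start of Pgr and Fkbp5 are shown, Fkbp5 further on with the other glucocorticoid targets. RefSeq promoter entries on GRCm38.p6 matched 6 of the 9 genes (Esr1, Pgr, Thrb, Fkbp5, Tsc22d3 and Sgk1) with 15 start sites, each read over 250 bases. The Pgr sequence lies at chr9:8899583-8899832 on the plus strand and has a GC content of 43.6%.
Pgr: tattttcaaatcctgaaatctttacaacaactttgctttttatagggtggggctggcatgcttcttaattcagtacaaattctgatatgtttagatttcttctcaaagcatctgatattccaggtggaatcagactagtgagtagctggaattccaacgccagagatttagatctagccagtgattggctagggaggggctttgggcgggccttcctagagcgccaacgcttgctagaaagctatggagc
None of the 15 windows held the palindromic estrogen response element GGTCANNNTGACC, searched on both strands, which occurs in 21 of 32851 RefSeq promoter windows of that length (0.0639%).

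Nr3c1 (ENSMUSG00000024431, chr18:39410545-39519421, minus strand) was the steadiest receptor. It had 86.4, 135 and 103 CPM in cre_AA14, 113, 95.8 and 103 CPM in cre_vehicle, 92.5, 107 and 111 CPM in ctrl_AA14, and 105, 112 and 89.2 CPM in ctrl_vehicle. All groups overlapped. AA14 gave a log2 fold change of 0.02 ± 0.17 with the control virus (edgeR adjusted p = 0.965) and 0.05 ± 0.17 with the cre virus (edgeR adjusted p = 1). The mineralocorticoid receptor gene Nr3c2, whose protein also binds corticosterone, lay between 27.6 and 53.9 CPM. Hsd11b1, the enzyme gene that regenerates active glucocorticoid, was at 26.8 to 52.4 CPM, while Hsd11b2, the gene of the inactivating enzyme, was at 0 to 0.321 CPM.

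The 2 thyroid hormone receptors differed in how widely they spread. Thra (ENSMUSG00000058756, chr11:98740638-98769006, plus strand) had 222, 76.6 and 171 CPM in cre_AA14, 79.5, 236 and 195 CPM in cre_vehicle, 87.7, 82.3 and 67.0 CPM in ctrl_AA14, and 201, 165 and 345 CPM in ctrl_vehicle. The 3 ctrl_AA14 libraries were all below the 3 ctrl_vehicle libraries, and 1 library of each cre group lay among the low ones. In control-virus mice AA14 gave a log2 fold change of -1.58 ± 0.45 (n = 3 each; edgeR unadjusted p = 0.00457, adjusted p = 0.141), and with the cre virus one of -0.12 ± 0.44 (edgeR adjusted p = 1). Omitting ctrl_vehicle replicate 3, the library with 345 CPM, gave -1.21 with the control virus, and omitting ctrl_vehicle replicate 2 gave -1.79. The exons of Thra overlap those of Nr1d1, on the opposite strand, by 263 of 4614 bases, and the strand setting of the counting is not given, so some reads could belong to either gene. Nr1d1, which encodes the circadian repressor REV-ERB alpha, had 80.6, 42.8 and 98.4 CPM in cre_AA14, 66.6, 127 and 119.6 CPM in cre_vehicle, 61.1, 56.2 and 19.2 CPM in ctrl_AA14, and 52.8, 81.9 and 111 CPM in ctrl_vehicle. Its ctrl_AA14 and ctrl_vehicle libraries overlapped.

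Thrb (ENSMUSG00000021779, chr14:17660261-18038090, plus strand) had 68.4, 97.7 and 93.5 CPM in cre_AA14, 74.9, 82.5 and 57.3 CPM in cre_vehicle, 76.5, 49.0 and 46.5 CPM in ctrl_AA14, and 47.3, 58.8 and 48.5 CPM in ctrl_vehicle. Its mean was higher after cre under both treatments, with overlap between groups. The log2 fold change of cre over control virus was 0.59 ± 0.22 under AA14 (edgeR unadjusted p = 0.0220, adjusted p = 0.582), 0.47 ± 0.22 under vehicle (edgeR unadjusted p = 0.0564, adjusted p = 1) and 0.53 ± 0.16 averaged over treatments (edgeR unadjusted p = 0.0059, adjusted p = 1). None passed the adjusted threshold of 0.05. The ratio of Thra to Thrb per kilobase ran from 1.26 in cre_AA14 2 to 11.4 in ctrl_vehicle 3, with Thra the higher of the 2 in every library. Thyrotrophs express both genes, and the thyrotroph markers Tshb and Trhr summed to 262 to 449 CPM in cre_AA14, 205 to 506 CPM in cre_vehicle, 404 to 555 CPM in ctrl_AA14 and 156 to 320 CPM in ctrl_vehicle. In a bulk sample, fewer cells of a type and less RNA per cell cannot be told apart.

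Among the glucocorticoid targets, Fkbp5 (ENSMUSG00000024222, chr17:28399094-28517527, minus strand) had 92.6, 72.3 and 108 CPM in cre_AA14, 55.3, 80.2 and 109.6 CPM in cre_vehicle, 53.4, 55.0 and 53.0 CPM in ctrl_AA14, and 73.9, 96.7 and 86.5 CPM in ctrl_vehicle. The ctrl_AA14 libraries were all below the ctrl_vehicle libraries and also all below the cre_AA14 libraries. In control-virus mice AA14 gave a log2 fold change of -0.67 ± 0.23 (n = 3 each; edgeR unadjusted p = 0.0135, adjusted p = 0.142), and with the cre virus one of 0.16 ± 0.23 (edgeR adjusted p = 1).

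Sgk1 (ENSMUSG00000019970, chr10:21882184-21999903, plus strand) had 25.0, 40.6 and 24.4 CPM in cre_AA14, 40.1, 50.3 and 28.4 CPM in cre_vehicle, 48.1, 42.9 and 44.6 CPM in ctrl_AA14, and 18.9, 19.7 and 45.3 CPM in ctrl_vehicle. In ctrl_vehicle a single library, replicate 3, reached the ctrl_AA14 range, and its mean log2 CPM of oligodendrocyte markers was 7.47, against 3.35 and 2.97 in the other ctrl_vehicle libraries. AA14 with the control virus gave a log2 fold change of 0.69 ± 0.34 (edgeR unadjusted p = 0.0675, adjusted p = 0.239), which became 1.23 without ctrl_vehicle replicate 3 and 1.21 ± 0.29 without the 3 oligodendrocyte-rich libraries (edgeR unadjusted p = 0.0026, adjusted p = 0.465). The sign of the Sgk1 effect was thus opposite to that of Fkbp5 in the same comparison. All 5 Malat1-rich libraries had 40.1 to 48.1 CPM of Sgk1, and the other 7 had 18.9 to 28.4 CPM except the 2 that were oligodendrocyte-rich, at 45.3 and 50.3 CPM. The part of oligodendrocyte RNA in these values was not tested.

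Tsc22d3 (ENSMUSG00000031431, chrX:140539528-140600659, minus strand) had 70.1, 84.6 and 69.9 CPM in cre_AA14, 73.0, 93.1 and 79.1 CPM in cre_vehicle, 37.7, 61.1 and 90.9 CPM in ctrl_AA14, and 58.5, 79.0 and 98.5 CPM in ctrl_vehicle. Zbtb16 (ENSMUSG00000066687, chr9:48654297-48836222, minus strand) had 15.7, 19.5 and 19.6 CPM in cre_AA14, 15.0, 15.0 and 18.6 CPM in cre_vehicle, 11.1, 13.7 and 19.6 CPM in ctrl_AA14, and 13.6, 21.4 and 16.0 CPM in ctrl_vehicle. For both genes the groups overlapped in every comparison. With the control virus the AA14 fold change (log2) was -0.32 ± 0.28 for Tsc22d3 and -0.20 ± 0.24 for Zbtb16 (edgeR adjusted p = 0.517 and 0.636).

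The sequences before the start sites of Sgk1, Tsc22d3 and Fkbp5 are shown because the glucocorticoid receptor binds a short palindrome in DNA, and these windows differ in whether they hold its letters. For Sgk1 and Tsc22d3, 1 window with a match was picked among 6 and 3 windows, while Fkbp5 has 1 window. Capitals mark the full element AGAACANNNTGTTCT in Sgk1 and its single arm TGTTCT in Tsc22d3, and Fkbp5 has no match. The Sgk1 window is chr10:21993640-21993889 on the plus strand, that of Tsc22d3 is chrX:140600523-140600772 on the minus strand and that of Fkbp5 is chr17:28486150-28486399 on the minus strand (GRCm38.p6, RefSeq).
Sgk1: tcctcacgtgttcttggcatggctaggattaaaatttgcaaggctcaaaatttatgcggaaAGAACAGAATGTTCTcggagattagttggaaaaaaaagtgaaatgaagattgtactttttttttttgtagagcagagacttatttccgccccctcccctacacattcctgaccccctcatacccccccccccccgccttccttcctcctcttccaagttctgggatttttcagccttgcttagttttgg
Tsc22d3: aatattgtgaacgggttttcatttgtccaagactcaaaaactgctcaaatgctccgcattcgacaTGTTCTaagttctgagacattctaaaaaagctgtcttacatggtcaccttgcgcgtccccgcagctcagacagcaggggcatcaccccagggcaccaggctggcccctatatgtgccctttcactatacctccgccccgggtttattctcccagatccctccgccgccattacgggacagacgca
Fkbp5: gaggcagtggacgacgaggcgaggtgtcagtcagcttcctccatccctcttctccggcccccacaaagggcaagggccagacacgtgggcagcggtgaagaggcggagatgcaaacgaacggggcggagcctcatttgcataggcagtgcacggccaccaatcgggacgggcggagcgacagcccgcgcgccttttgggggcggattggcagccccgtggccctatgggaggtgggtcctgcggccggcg
The full element in the Sgk1 window, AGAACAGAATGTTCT, lies 189 to 175 bases before the start. On both strands, that element occurs in 3 of 32851 RefSeq windows (0.00913%) and the arm, which is also part of the full element, in 16.1%. Among the 15 windows of these genes, 5 held the arm, namely 3 of 6 in Sgk1, 1 of 2 in Thrb and 1 of 3 in Tsc22d3. The hexamer AGGTCA, bound by many nuclear receptors, was in 3 of the 15 windows (Sgk1 and Thrb) and in 14.0% of all windows. The direct repeat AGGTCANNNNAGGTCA, a known thyroid hormone response element, was in none of the 15 and in 0.0152% of all windows. A match is a run of letters and was not tested for binding.

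AA14 with the control virus was compared with vehicle over all genes to place these values. None of the 9 genes passed the adjusted threshold in edgeR, where 0.00442% of 22630 genes did. At an unadjusted p below 0.05, 3 of 9 were lower (Pgr, Thra and Fkbp5), against 15.8% of all genes lower, and 0 of 9 were higher, against 8.03%. The same 3 genes had groups that did not overlap, lower in ctrl_AA14, against 20.1% of all genes. The count of calls depended on the tool: DESeq2 called 2 of 9 (Pgr and Thra, adjusted p = 0.0406 and 0.0179; 13.4% of the genes it tested), and limma-voom with library weights called 4 of 9 (Pgr, Thra and Fkbp5 lower and Sgk1 higher, at 15.1% of genes). With only the control-virus libraries in the fit, edgeR called 3 of 9 (Pgr, Thra and Fkbp5), beside 10.6% of all genes. Without the 3 oligodendrocyte-rich libraries, Thra was at -1.26 ± 0.51, Pgr at -0.94 ± 0.43 and Fkbp5 at -0.63 ± 0.32 (log2, edgeR unadjusted p = 0.0350, 0.0560 and 0.0800). Pgr and Fkbp5 were thus no longer below 0.05 in that fit, which was added after seeing the data.

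AA14 with the cre virus moved none of the 9 genes past an unadjusted p of 0.05, and 2.29% of all genes were past it. The largest estimates were -0.68 ± 0.65 for Esr1 and -0.40 ± 0.34 for Sgk1 (log2, edgeR), and the groups overlapped for all 9, where 3.32% of all genes were higher and 2.54% lower without overlap. The adjusted threshold was passed by 0 of the 9 in edgeR and limma-voom (0% of all genes) and in DESeq2 (0.0627%). The difference between the AA14 effect after cre and that with control virus was 1.46 ± 0.62 for Thra, 0.83 ± 0.32 for Fkbp5 and -1.10 ± 0.48 for Sgk1 on the log2 scale (edgeR unadjusted p = 0.0384, 0.0263 and 0.0444). These 3 of 9 stood beside 7.03% of all genes, and each had an adjusted p of 0.631, so no difference between the viruses passed the test. Cre against control virus gave 0 of 9 genes at an unadjusted p below 0.05 under vehicle (2% of all genes). Under AA14, 3 of 9 were higher after cre (Thra, Thrb and Fkbp5, at 7.08% of all genes), with edgeR adjusted p of 0.582 or more. Without overlap between groups, Pgr and Fkbp5 were higher after cre under AA14 (7.3% of all genes were) and Sgk1 was lower (6.76%). These comparisons share libraries with each other, so they are not separate evidence.

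**Figure D3:**
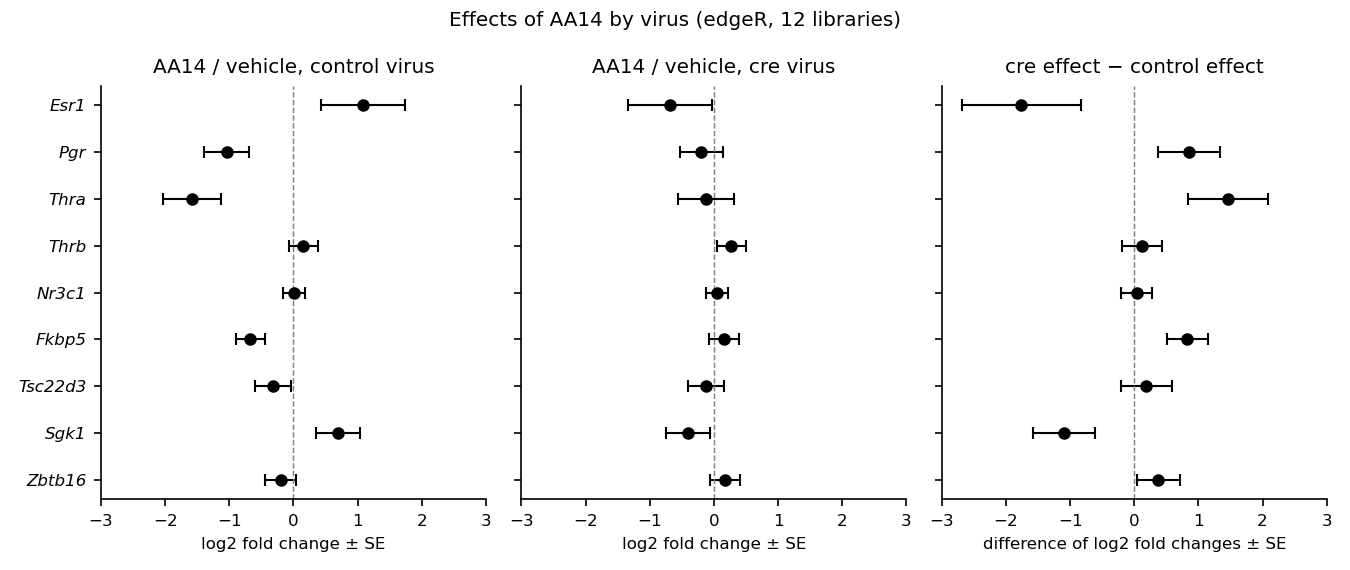
Log2 fold change ± SE (edgeR) of AA14 over vehicle with the control virus and with the cre virus, and the difference of these effects (cre minus control), for the 9 genes. With the control virus Thra is at -1.58, Pgr at -1.04 and Fkbp5 at -0.67, and none of the 9 passes an adjusted p of 0.05 in any panel.

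The 3 genes that were lower in ctrl_AA14 were also lower in the Malat1-rich libraries of the other groups. Thra lay between 67.0 and 87.7 CPM in the 5 Malat1-rich libraries and between 165 and 345 CPM in the other 7. Pgr lay between 6.60 and 7.74 CPM in the Malat1-rich libraries and between 12.7 and 18.2 CPM in the others, and Fkbp5 between 53.0 and 72.3 CPM and between 73.9 and 109.6 CPM. The highest values of Thra and Pgr came from oligodendrocyte-rich libraries. In the 5 libraries that were neither Malat1-rich nor oligodendrocyte-rich, Thra lay between 165 and 222 CPM and Pgr between 12.7 and 16.2 CPM. Of the 9 genes, 3 separated the libraries in this direction, 0 in the opposite one and 6 overlapped, while 13.1% of all genes tested were lower and 9.23% higher in every Malat1-rich library. The Malat1-rich libraries include all of ctrl_AA14 and none of ctrl_vehicle. The 2973 genes lower by state are thus all among the 4559 that were lower without overlap in ctrl_AA14. The split is therefore not separate evidence from that comparison, here or for the gene lists below. Among the cre libraries, where each treatment had 1 Malat1-rich library, Thra was 76.6 CPM in the rich cre_AA14 library and 79.5 CPM in the rich cre_vehicle library. The Malat1-poor cre libraries had 222 and 171 CPM of Thra under AA14 and 236 and 195 CPM under vehicle.

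All ctrl_AA14 libraries and no ctrl_vehicle library were Malat1-rich, so AA14 and this library state cannot be told apart with the control virus. With the state as a term in the edgeR model, which takes its size from the cre libraries, the AA14 effect with the control virus was -0.19 ± 0.36 for Thra, 0.06 ± 0.24 for Pgr and -0.05 ± 0.21 for Fkbp5 (log2), and 2.31 ± 0.90 for Esr1 (unadjusted p = 0.0279, adjusted p = 1). Other values moved with the state too. Summed gonadotroph markers were 2266 to 2575 CPM in Malat1-rich libraries and 1238 to 1980 CPM in the others. Thyrotroph markers summed to 404 to 555 and 156 to 370 CPM, and posterior lobe markers to 69.1 to 100.2 and 115 to 497 CPM. The somatotroph sums overlapped, at 188974 to 242166 and 90566 to 204014 CPM. Single markers did not all follow these sums. Of the 2 somatotroph markers, Ghrhr was higher in every Malat1-rich library and Gh overlapped. Of the 2 thyrotroph markers, Tshb was higher in every Malat1-rich library and Trhr overlapped. Of the 4 gonadotroph markers, only Fshb was higher in all of them. Nr5a1 had 26.0 to 31.6 CPM in Malat1-rich libraries and 31.6 to 44.3 CPM in the others. Of the 5 posterior lobe markers, only Avp and Oxt were lower in all of them, and the rest overlapped. The part of these markers in the results was not tested. The longest transcript of Thra had a GC content of 59.8%, higher than in 95.2% of genes, that of Fkbp5 51.6% and that of Pgr 46.1%, while the median was 54.0% over the 2973 genes lower and 46.6% over the 2088 genes higher in every Malat1-rich library.

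**Figure D4:**
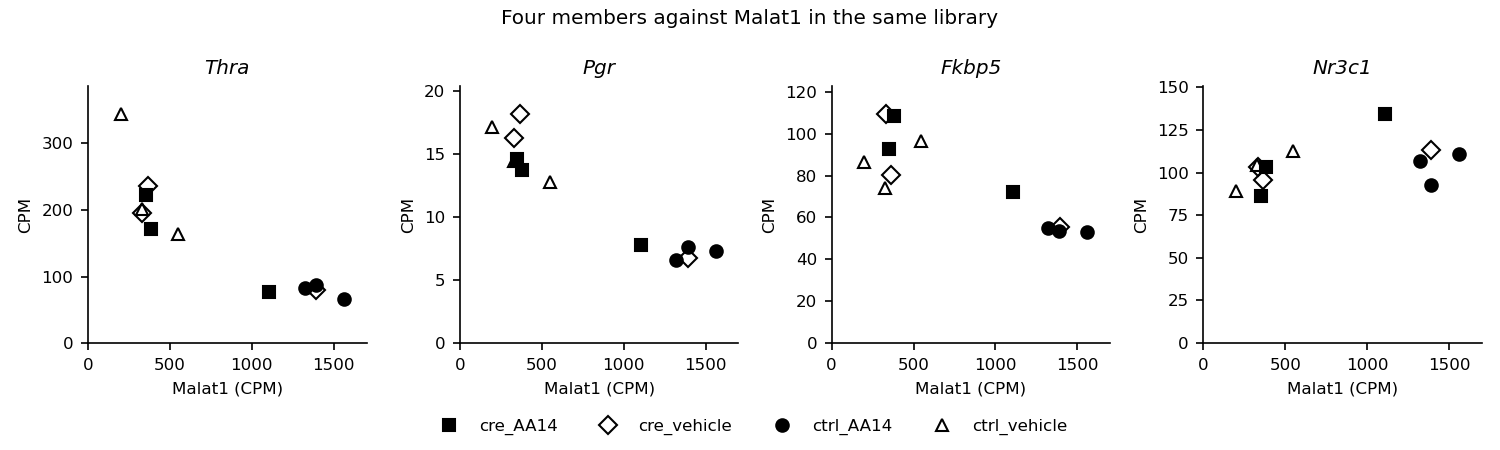
CPM of Thra, Pgr, Fkbp5 and Nr3c1 (linear axes from 0) against Malat1 (CPM) in the same library; filled symbols are AA14 and open symbols vehicle, squares and diamonds cre, circles and triangles control virus. Thra and Pgr form 2 separate clusters, at Malat1 of 549 CPM or less and above 1000 CPM, and Fkbp5 leaves a narrow gap (72.3 against 73.9 CPM), while Nr3c1 spans 92.5 to 135 CPM in the Malat1-rich cluster and 86.4 to 112 CPM in the other.

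Fkbp5 was also set against the receptor and against a related chaperone. Fkbp5 per kilobase was 0.389 to 0.469 of the Nr3c1 level in Malat1-rich libraries and 0.573 to 0.870 of it in the others. Fkbp4, which encodes the chaperone that Fkbp5 protein competes with on the receptor complex, had a log2 fold change of -0.52 ± 0.22 with AA14 and the control virus (edgeR unadjusted p = 0.0379, adjusted p = 0.189). The ratio of Fkbp5 to Fkbp4 per kilobase ran from 0.102 to 0.150 in Malat1-rich libraries and from 0.118 to 0.207 in the others, which overlap.

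Genes that work with these receptors were counted from lists, none of whose members passed the adjusted threshold in edgeR in any comparison. The counts that follow stand beside 15.8% lower and 8.03% higher of all genes at an unadjusted p below 0.05 with AA14 and the control virus. Of 16 other receptors, 7 were lower and 1 higher at an unadjusted p below 0.05 with AA14 and the control virus, with a median log2 fold change of -0.46 against -0.02 over all genes. The lowest unadjusted p-values were those of Esrra, an orphan receptor of energy metabolism (-1.18 ± 0.33), Pgrmc2, a heme-binding membrane protein (-1.19 ± 0.33), and Rxra, a partner receptor of the thyroid hormone receptors (-1.21 ± 0.34; edgeR adjusted p = 0.141 for all 3). Of 13 coregulators, 2 were lower and 0 higher, among them the corepressor Nrip1 (-0.64 ± 0.21; edgeR adjusted p = 0.141). Of 10 chaperones, 3 were lower (Bag1, Fkbp4 and Hspa4) and 0 higher, with a median of 0.03. In the library split, 6 of the 16 receptors were lower and 1 higher in every Malat1-rich library, as were 6 and 1 of the 13 coregulators and 3 and 0 of the 10 chaperones, beside 13.1% lower and 9.23% higher over all genes.

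Targets of estrogen and thyroid hormone were mixed. Of 8 estrogen targets, Gal, which encodes the neuropeptide galanin (-1.85 ± 0.67), and the cyclin gene Ccnd1 (-0.58 ± 0.19) were lower and the transcription factor gene Xbp1 (0.55 ± 0.21) was higher with AA14 and the control virus at an unadjusted p below 0.05 (log2; edgeR adjusted p = 0.151, 0.141 and 0.161). Of 11 genes of thyroid hormone handling and response, 3 were lower and 1 higher, against 15.8% and 8.03% of all genes. Hr, a corepressor gene that thyroid hormone induces, had 18.0, 21.0 and 18.2 CPM in ctrl_AA14, against 45.1, 29.1 and 41.4 CPM in ctrl_vehicle (-1.01 ± 0.25, edgeR adjusted p = 0.141). These Hr values did not overlap, and 20.1% of all genes were likewise lower without overlap. Tshb, which thyroid hormone represses, was the higher one, at 464, 539 and 386 CPM in ctrl_AA14, against 277, 305 and 146 CPM in ctrl_vehicle (0.93 ± 0.37, edgeR adjusted p = 0.170). With the cre virus the same lists held 0 genes at an unadjusted p below 0.05. Of 6 steroid metabolism genes, 4 were tested, and Srd5a1, the steroid 5-alpha-reductase gene, was lower (-1.27 ± 0.50, edgeR adjusted p = 0.166). Gal, Ccnd1 and Srd5a1 were also lower, and Xbp1 and Tshb higher, in every Malat1-rich library than in every other library, while Hr overlapped. Thrsp, from the same list as Hr and Tshb, overlapped too, at 37.3 to 43.8 CPM in Malat1-rich libraries and 28.9 to 42.8 CPM in the others.

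Another set of 18 glucocorticoid targets was counted beside Fkbp5, Tsc22d3, Sgk1 and Zbtb16. With AA14 and the control virus 1 of 18 was lower at an unadjusted p below 0.05, Pdk4, a kinase gene that restrains glucose oxidation (-1.10 ± 0.38, edgeR adjusted p = 0.145), and 0 were higher, against 15.8% and 8.03% of all genes. Pdk4 was 1 of 3 of the 18 that were lower in every Malat1-rich library, with Ddit4 and Cebpd, and 0 were higher in all of them. Over all genes, 13.1% were lower and 9.23% higher in every Malat1-rich library. In the library cre_AA14 1, 9 of the 18 had their highest value of the 12 libraries, beside 11.4% of all genes. They were Per1, Dusp1, Nfkbia, Cdkn1a, Errfi1, Ddit4, Mt1, Mt2 and Cebpd. Of the 9 chosen genes, 0 had their highest value there, a count near the share of all genes. Dusp1, a phosphatase gene, had 607, 117 and 25.3 CPM in cre_AA14 and 49.0, 118 and 135 CPM in cre_vehicle. Errfi1, an inhibitor of the epidermal growth factor receptor, had 245, 39.5 and 31.5 CPM in cre_AA14 and 22.6, 43.3 and 38.4 CPM in cre_vehicle. Fos, an immediate-early gene, had 662, 102 and 5.33 CPM in cre_AA14 and 37.7, 19.8 and 60.9 CPM in cre_vehicle. In the same cre_AA14 1 library Fkbp5 was at 92.6, Tsc22d3 at 70.1, Sgk1 at 25.0 and Zbtb16 at 15.7 CPM, inside the range of the other libraries. Glul, the glutamine synthetase gene, was highest in ctrl_vehicle 3 (976 CPM) and cre_vehicle 2 (895 CPM), the 2 libraries richest in oligodendrocyte markers, and between 178 and 349 CPM elsewhere.

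**Figure D5:**
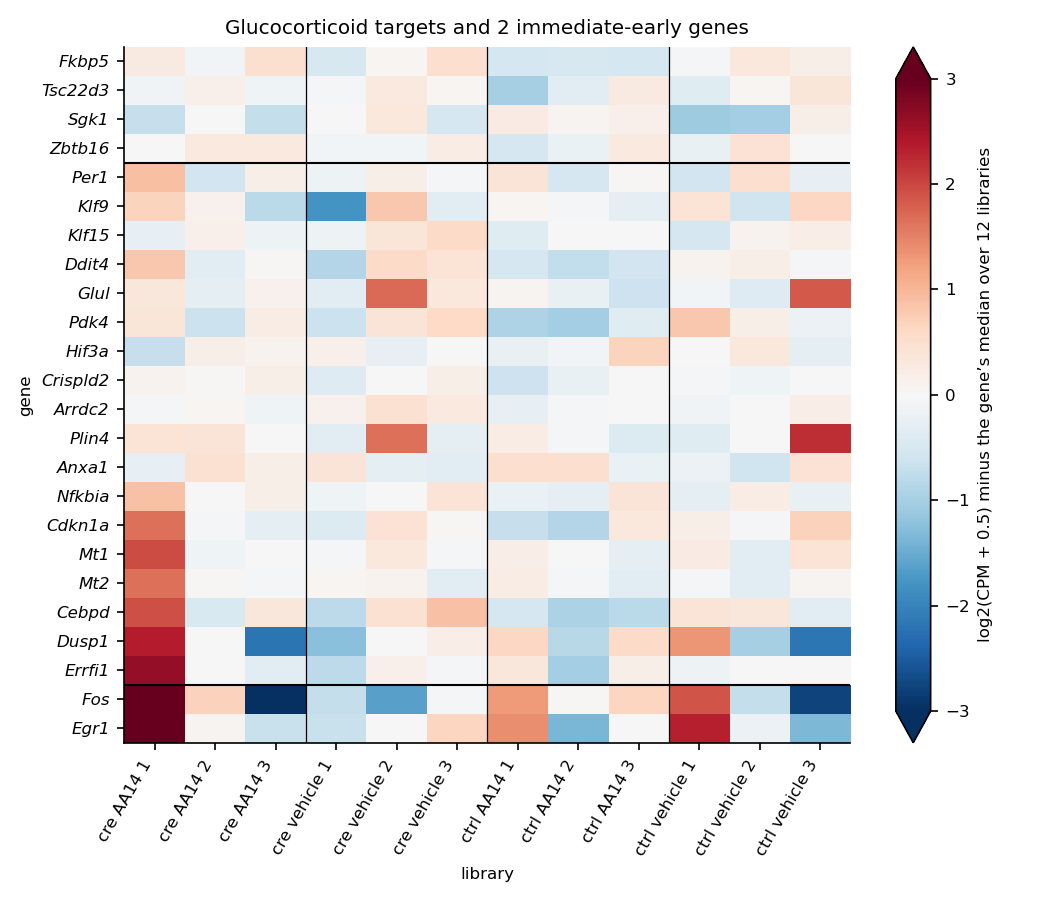
Heat map of log2(CPM + 0.5) minus each gene's median over the 12 libraries, with the 4 chosen targets at the top, 18 other glucocorticoid targets in the middle and the immediate-early genes Fos and Egr1 at the bottom; columns are libraries and colours saturate at 3. In cre AA14 1, 9 of the 18 other targets have their highest value, as do Fos and Egr1, beside 11.4% of all genes. None of the 4 chosen targets does, which is near that share.

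Nearest profiles were sought among 10203 genes of at least 10 CPM by the root mean square difference of centred log2(CPM + 0.5) over the 12 libraries. Pgr was closest to Bcar3 (0.07) and Atxn7l3b (0.10), and Thra to Timp2 (0.12) and Cmip (0.13), small beside their own root mean square deviations of 0.53 and 0.76. Fkbp5 was closest to Afg3l1 and Rnaset2b (0.13 each), Nr3c1 to Ttf1 and Tmem186 (0.09 each) and Zbtb16 to Prkch (0.16) and Slc30a5 (0.17). Sgk1 was closest to Sgpp2 (0.21) and Tecr (0.24), Tsc22d3 to Zdhhc3 (0.21) and Zfp646 (0.22), and Thrb to Commd8 (0.26) and Hnrnpm (0.28). Esr1 had no close neighbour: Slc35e2 and Mapk14 differed from it by 0.66 and 0.67, against its own deviation of 0.89.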

How the data were processed

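For each of the 12 libraries the authors deposited 1 table of integer counts by Ensembl gene ID. Per the labels' protocols, reads were mapped with HISAT2 version 2.0.0, and featureCounts 1.5.0-p3, DESeq 1.8.3 and GRCm38 appear in the submitters' processing notes. Neither the annotation release nor the strand setting is given in the sources used here. IDs were matched to symbols for 55154 of 55421 genes. GENCODE M21 annotation of GRCm38 gave coordinates, exon length and transcript GC content.

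Genes were filtered with filterByExpr and scaled with TMM. edgeR 4.0.16 (R 4.3.3) fitted 1 mean per group over the 12 libraries with quasi-likelihood F tests, two-sided, and Benjamini-Hochberg adjustment over all 22630 genes at 0.05, for 7 comparisons. SEs were derived from each fold change (log2) and its F statistic, as size over root F. The common biological coefficient of variation was 0.445, and the median SE for genes of at least 1 CPM was 0.26 in the control-virus AA14 comparison. The fit was tested on simulated data for that comparison, where it missed most 2-fold changes. A gene that was not called may thus still differ. Alternatives were other scalings and filters, DESeq2 1.42.0, limma-voom 3.58.1 with library weights, a fit of only the groups compared, a replicate block and each library left out. A term for the Malat1 state (above 1000 CPM) and a fit without the oligodendrocyte-rich libraries (mean log2 above 5) were added after seeing the data.

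The members and the lists were chosen with earlier results of these data known. Named genes are the 9 members, the 2 nearest profiles of each, and from each list the genes past the threshold or otherwise up to 3 of at least 1 CPM with the smallest unadjusted p. Some genes that this rule takes in are not reported here. Genes named for their maximum in cre_AA14 1, those named from levels alone and Glul were chosen after their values were seen. Marker genes of other cell types were summed per library, or averaged as log2 CPM for oligodendrocytes.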

Additional observations from a re-analysis of the deposited data

How the results depend on the processing

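Over 981 alternative values for the 9 genes in 5 comparisons, 913 kept their direction and their side of the threshold, 9 passed it (all with AA14 and the control virus) and 59 turned sign, none of them a called value. With AA14 and the control virus, DESeq2 called 2 members, limma-voom 4 and the fit of only the groups compared 3, against 0 in the edgeR fit. Over all genes these tools called 2299, 3409 and 2266 against 1. Same-number libraries did not all deviate together (correlations from -0.56 to 0.36, not all above 0.1). Correlations between libraries of different numbers were not computed, so whether the replicate numbers pair the libraries was not settled. The replicate block called 0 members in each comparison, with Thra at -1.53 and Pgr at -1.03 in the control-virus AA14 comparison. Upper quartile scaling moved the median of all genes there to 0.11 from -0.02 (log2).

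The sign changes, all log2 values, were as follows, and the cause was not tested. With AA14 and the control virus, Nr3c1 was -0.000906 with no low-count filter, -0.076 in limma-voom and -0.33 with the Malat1 term. With that term Pgr was 0.059 and Thrb -0.032, and without the oligodendrocyte-rich libraries Thrb was -0.12 and Tsc22d3 0.18. With AA14 and the cre virus, leaving out those libraries gave 0.069 for Esr1, 0.053 for Pgr, 0.18 for Thra and -0.012 for Nr3c1. For the difference between viruses, Nr3c1 was -0.052 with upper quartile scaling and -0.042 without the oligodendrocyte-rich libraries, Tsc22d3 was -0.21 without them, and Pgr was -0.18 with the Malat1 term. For cre under vehicle, limma-voom gave 0.15 for Pgr, -0.061 for Nr3c1 and 0.14 for Fkbp5, the Malat1 term gave 0.14, -0.091 and 0.098 for the same genes, and Esr1 was -0.42 without the oligodendrocyte-rich libraries. For cre under AA14, the Malat1 term gave -0.042 for Pgr and -0.071 for Thra, and leaving out the oligodendrocyte-rich libraries gave -0.030 for Nr3c1 and -0.044 for Tsc22d3.

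Leaving out 1 library at a time called 0 members in every comparison. With AA14 and the control virus the range was -0.074 to 0.091 for Nr3c1 and -0.12 to 0.30 for Thrb. With AA14 and the cre virus it was -1.10 to 0.078 for Esr1, -0.068 to 0.43 for Fkbp5, -0.14 to 0.18 for Nr3c1, -0.53 to 0.063 for Pgr and -0.47 to 0.20 for Thra. For the difference between viruses it was -0.14 to 0.18 for Nr3c1, -0.034 to 0.39 for Thrb and -0.069 to 0.53 for Tsc22d3. For cre under vehicle it was -0.31 to 0.85 for Esr1, -0.34 to 0.15 for Fkbp5, -0.063 to 0.10 for Nr3c1, -0.36 to 0.22 for Pgr, -0.12 to 0.25 for Tsc22d3 and -0.21 to 0.13 for Zbtb16. For cre under AA14 it was -0.12 to 0.21 for Nr3c1 and -0.014 to 0.59 for Tsc22d3. Esr1 rested on single libraries: its control-virus AA14 value ran from 0.69 to 1.58. Pgr, the lowest of the 9 genes in CPM, had 334 to 1359 counts per library; how calls depend on depth was not tested.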
